A study of Mus musculus with 8 samples.

Results

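The lysyl oxidases and the main genes of the elastic fiber were followed through pluripotent mouse cell lines by RNA-seq. The genes were chosen by name and number 10 of the 22499 gene names measured. They are the lysyl oxidases Lox, Loxl1, Loxl2, Loxl3 and Loxl4, the fibrillins Fbn1 and Fbn2, elastin (Eln) and the fibulins Fbln5 and Efemp2. They were picked with their differences between the lines already known, so that their own levels are given as a description and carry no test. All 10 were measured in every library, and all 10 reached the level needed to enter the fit across genes, Eln in R1 alone.

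Lysyl oxidases are secreted, copper-dependent enzymes that oxidize lysine residues of collagen and elastin, and the aldehydes they make form the crosslinks between fibers. An elastic fiber has a core of crosslinked elastin laid on a scaffold of microfibrils, which are built of fibrillins, and fibulins bring elastin, microfibrils and lysyl oxidases together. Fibroblasts and smooth muscle cells are the best known makers of these proteins, while pluripotent cells are not known for an elastic matrix.

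The study set induced pluripotent stem cells (iPSCs) beside embryonic stem cells (ESCs) to ask how far they are alike whatever tissue they came from. R1 is an ESC line. The 4 iPSC lines are of the second generation, which means that somatic cells were taken from adult mice derived wholly from a first iPSC line carrying doxycycline-inducible Oct4, Sox2, c-Myc and Klf4, and were reprogrammed by doxycycline, which was later withdrawn. Line 16-6 came from hematopoietic progenitors and line 32 from adipocyte progenitors (both mesoderm), S8 from epidermal cells (ectoderm) and T2 from the stomach lining (endoderm), with 2 libraries each for R1, 16-6 and 32 and 1 library each for S8 and T2. According to the study's methods, every line was grown with serum and LIF on fibroblast feeder cells from mouse embryos, whose division had been stopped with mitomycin C. Each somatic source stands for 1 iPSC line, so that a source and a line cannot be told apart, and the inducible transgenes are a further difference between all iPSC lines and R1. The labels give the tissue of all 8 libraries as embryo, although they name them as cultured ES or iPS cells.

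Expression is given as FPKM, the number of sequenced fragments for each kilobase of a transcript in every 1000000 that mapped, after all deposited values were divided by 12725.7, a constant that sets the median library total to 1000000. FPKM is a value per length, so that levels may be set side by side between genes. Each value has a lower and an upper confidence limit, which reach 2 standard deviations of the estimate to each side. The limits cover error within a library and not the spread between samples. For some genes they hold more than counting error: Efemp2 implied 660 and 531 fragments in R1 at an FPKM of 45.7 and 47.5. In units of 1000000, the limits imply 15.48 to 16.68 fragments in each library. The study lists several times more uniquely mapped reads, and a lower share of reads mapped, for S8 and T2 than for the other lines, a difference in depth that the limits do not show and whose cause was not tested. The pluripotency markers (10 genes, Pou5f1, Nanog and Sox2 among them) were at an FPKM of at least 1 in all 8 libraries, and their sum ran from 2714.4 in a library of 16-6 to 5485.4 in S8. Replicate libraries differed by more than sampling noise (chi-square over its degrees of freedom of 1.39 to 1.69) and were kept as separate samples. The study calls them biological replicates, but whether they came from separate cultures is not in the sources used here, so the spread between them may be technical.

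The 5 lysyl oxidases share a short stretch that carries the histidines which bind copper. It is shown here because it is what makes these genes 1 family and because near-identical stretches bear on how reads are assigned. Per the authors' methods only unique alignments were kept, so a read that matched more than 1 gene equally well would be left out. The coding bases of the stretch, read in the genome build of the files (mm9), are printed 5′ to 3′ with the 4 histidine codons in capitals. In each gene an intron interrupts the stretch, and it lies at chr9:58141527-58142188 (minus strand) for Loxl1, chr14:70082123-70088844 (plus strand) for Loxl2, chr6:82999989-83000119 (plus strand) for Loxl3 and chr19:42673297-42674389 (minus strand) for Loxl4.
Loxl1: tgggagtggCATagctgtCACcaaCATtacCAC
Loxl2: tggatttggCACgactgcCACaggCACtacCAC
Loxl3: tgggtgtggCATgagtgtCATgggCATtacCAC
Loxl4: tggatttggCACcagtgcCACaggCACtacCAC
The stretch lies near the end of the coding sequence, with 132 codons after its start in Lox and Loxl1 and 152 to 155 in Loxl2, Loxl3 and Loxl4. Loxl2 and Loxl4 shared 31 of its 33 bases, and Lox, whose bases are not printed, shared 32 of 33 with Loxl1. The other pairs shared 21 to 25 bases. Over whole coding transcripts, the longest identical run between any pair of lysyl oxidases was 11 to 32 bases, the longest being that of Lox and Loxl1, while Fbn1 and Fbn2 shared a run of at most 26 bases and Fbln5 and Efemp2 of at most 21.

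Lox, the founder of the family and a crosslinker of both collagen and elastin, lies on chromosome 18 (52676892 to 52689362, minus strand). Its FPKM was 66.4 and 64.8 in R1, 148 and 160.3 in 16-6, 7.84 and 8.45 in 32, 17.5 in S8 and 48.1 in T2. Every line was thus separate from its neighbors in the order 16-6, R1, T2, S8 and 32, and neither the libraries nor their confidence limits overlapped. The mean in 16-6 was 154 ± 8.34 (SD, n = 2), 2.35 times that in R1 (65.6 ± 1.15) and 19 times that in 32 (8.14 ± 0.43).

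Loxl1, which is known for its part in the upkeep of elastin, lies on chromosome 9 (58135530 to 58161019, minus strand). Its FPKM was 19.6 and 23 in R1, 52.1 and 51.6 in 16-6, 2.24 and 2.26 in 32, 13.5 in S8 and 13.4 in T2. S8 and T2 did not differ beyond their limits, and the other neighbors were separate. The mean of 16-6 was 2.44 times that of R1 and 23.1 times that of 32.

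Loxl2, Loxl3 and Loxl4 form the branch of the family that carries scavenger receptor cysteine-rich domains. Loxl2, on chromosome 14 (70009283 to 70095641, plus strand), is known for crosslinking collagen of basement membranes. It had an FPKM of 36.9 and 36.4 in R1, 98.4 and 99.6 in 16-6, 6.78 and 7.6 in 32, 17.6 in S8 and 30 in T2, with no overlap between any lines. Its mean in 16-6 was 2.7 times that in R1 and 13.8 times that in 32.

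Loxl3, on chromosome 6 (82984218 to 83002558, plus strand), had an FPKM of 6.68 and 7.2 in R1, 34.2 and 33.7 in 16-6, 1.08 and 1.01 in 32, 8.31 in S8 and 8.92 in T2. Here R1 stood below S8 and T2: the limits of T2 and S8 overlapped, as did those of S8 and R1. The limits imply 497 fragments in S8 and 585 in T2, beside 545 and 569 in R1. The place of S8 above R1 was thus not seen in the fragments, and why FPKM and fragments differ in order was not tested. Its ratio between 16-6 and 32, 32.5, was the highest of the 10 genes, and that between 16-6 and R1, 4.89, was also the highest. Of the 4196 exonic bases of Loxl3, 535 (12.8%) overlap Htra2, a mitochondrial protease gene on the other strand, and whether reads were counted by strand is not given in the sources used here. The FPKM of Htra2 was 15.3 and 17.8 in R1, 23.1 and 21.6 in 16-6, 13.1 and 12.9 in 32, 33.5 in S8 and 25.6 in T2, an order in which S8 and not 16-6 stood first.

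Loxl4, on chromosome 19 (42666769 to 42687296, minus strand), was the lowest lysyl oxidase in 7 of the 8 libraries. Its FPKM was 2.09 and 2.48 in R1, 7.52 and 7.24 in 16-6, 0.94 and 1.15 in 32, 1.09 in S8 and 1.64 in T2. Line 16-6 stood apart from all others, but the limits of R1 and T2, of T2 and S8, and of S8 and 32 overlapped in turn, and S8 lay between the libraries of 32. The values outside 16-6 rested on 59 to 178 fragments each.

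**Figure D1:**
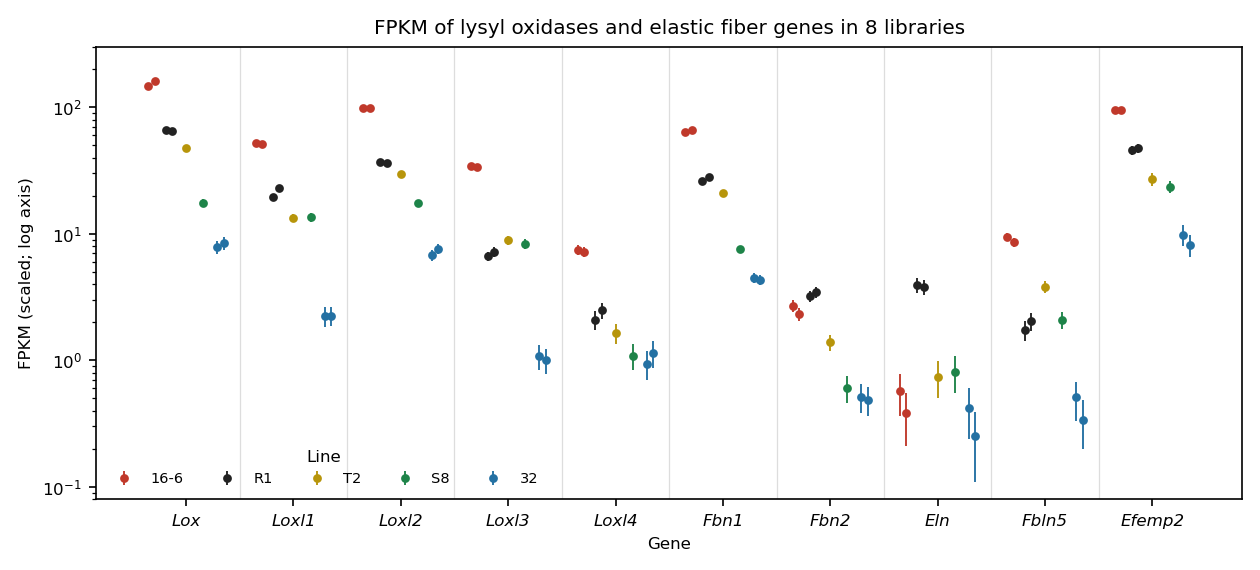
FPKM (log axis) of the 10 genes in each library, with points for single libraries, bars for the deposited confidence limits and colors for the 5 lines. Line 32 has the lowest mean for every gene, and line 16-6 the highest for all but Fbn2 and Eln, where R1 stands above it.

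The make-up of the family varied less than its total. The summed FPKM of the 5 lysyl oxidases was 131.6 and 133.9 in R1, 340.7 and 352.5 in 16-6, 18.9 and 20.5 in 32, 58.1 in S8 and 102 in T2. Lox took the largest share in 7 libraries, from 41.3% in a library of 32 to 50.4% in a library of R1. In S8 its share was 30.2%, beside 30.4% for Loxl2. S8 also had the largest shares of Loxl1 (23.2%, against 11% to 17.2% in the other libraries) and Loxl3 (14.3%, against 4.9% to 10%). The FPKM for a given number of fragments was not the same in all libraries. Loxl1 had an implied 608 fragments in S8 and 695 in T2, at an FPKM of 13.5 and 13.4. The part of this in the shares of S8 was not tested. Loxl2 took 35.9% and 37.2% in 32 and 27.2% to 30.4% elsewhere. Loxl4 held 5% and 5.6% in 32 and 1.6% to 2.2% in the others. The replicates of a line differed in a share by at most 2.3 percentage points.

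**Figure D2:**
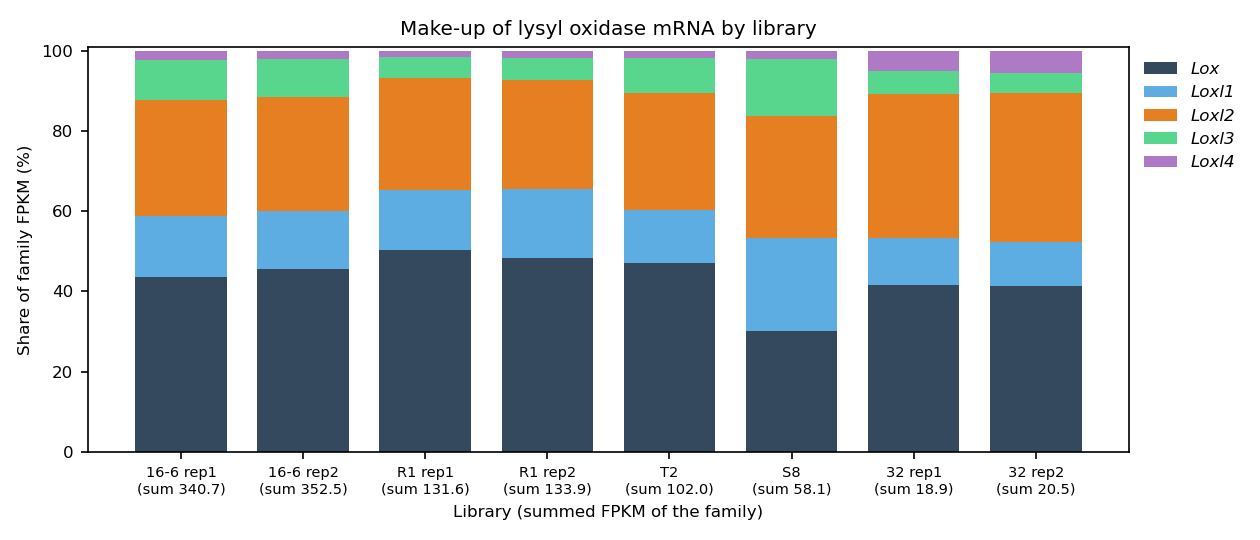
Share of each lysyl oxidase (percent, stacked bars) in the summed FPKM of the family, with 1 bar for each of the 8 libraries and the sum written under it. Lox is the largest part in 7 libraries, while S8 has nearly equal parts of Lox (30.2%) and Loxl2 (30.4%).

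Fbn1, the main fibrillin of adult microfibrils and the gene mutated in Marfan syndrome, lies on chromosome 2 (125126330 to 125332174, minus strand). It had an FPKM of 26.2 and 28.3 in R1, 64.1 and 65.8 in 16-6, 4.51 and 4.34 in 32, 7.53 in S8 and 21.1 in T2, with no overlap between lines. The order was that of Lox, and the mean of 16-6 was 2.38 times that of R1 and 14.7 times that of 32. Of its 12128 exonic bases, 2442 (20.1%) overlap the predicted gene Gm9913 on the other strand, so that without strand, reads from that gene cannot be told apart from those of Fbn1.

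Fbn2, a fibrillin best known from embryonic tissue, lies on chromosome 18 (58168277 to 58369580, minus strand) and showed another order. Its FPKM was 3.21 and 3.45 in R1, 2.71 and 2.31 in 16-6, 0.51 and 0.49 in 32, 0.6 in S8 and 1.39 in T2. R1 stood first with 1.33 times the mean of 16-6, but the confidence limits of these lines overlapped, as did those of S8 and 32. The ratio of Fbn1 to Fbn2 was 8.2 in both libraries of R1, 8.8 and 8.9 in 32, 12.5 in S8, 15.2 in T2, and 23.7 and 28.5 in 16-6.

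Eln, which encodes tropoelastin, the soluble unit of the elastic core, lies on chromosome 5 (135178466 to 135223124, minus strand). Its FPKM was 3.95 and 3.82 in R1, 0.57 and 0.38 in 16-6, 0.42 and 0.25 in 32, 0.81 in S8 and 0.74 in T2. Both R1 libraries thus stood above every iPSC library, and the 4 iPSC lines could not be put in order: the limits of S8 and T2, of T2 and 16-6, and of 16-6 and 32 overlapped, and libraries of 16-6 and 32 interleaved. The mean of R1 (3.88 ± 0.09, SD, n = 2) was 8.16 times that of 16-6 (0.48 ± 0.13), while the enzymes that crosslink elastin were 2.35 to 4.89 times higher in 16-6 than in R1. Between 206 and 220 fragments stood behind the R1 values and 13 to 38 behind the iPSC values, so the elastin levels of the iPSC lines are imprecise, and replicates of 16-6 and 32 differed 1.5 and 1.68 times.

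Fbln5 encodes fibulin-5, which binds elastin and Loxl1, and lies on chromosome 12 (102984775 to 103057265, minus strand). It had an FPKM of 1.74 and 2.05 in R1, 9.44 and 8.62 in 16-6, 0.51 and 0.34 in 32, 2.1 in S8 and 3.8 in T2. The order was that of Loxl3, with R1 below S8 and T2: T2 stood at 2 times the mean of R1 and did not overlap it, while the limits of S8 and R1 overlapped. Efemp2 encodes fibulin-4, which is needed for elastic fiber assembly and binds Lox, and lies on chromosome 19 (5474690 to 5481854, plus strand). It had an FPKM of 45.7 and 47.5 in R1, 95.2 and 96 in 16-6, 9.85 and 8.2 in 32, 23.6 in S8 and 27.1 in T2, in the order of Lox and with overlap only between the limits of T2 and S8. Efemp2 exceeded Fbln5 in every library, by 26.2 and 23.1 times in R1, 10.1 and 11.1 times in 16-6, 19.3 and 23.8 times in 32, 11.2 times in S8 and 7.1 times in T2.

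Promoters were read from a RefSeq table of another build (GRCm38.p6), which matched 4 of the 10 genes with 7 start sites. The 250 bases before a start are shown for a lysyl oxidase and a fibulin that were both highest in 16-6, Loxl4 at chr19:42612807-42613056 and the outer of the 2 starts of Fbln5 at chr12:101819120-101819369, both on the minus strand. Capitals mark GGGCGG read on either strand, the core of the GC box bound by Sp1 and related factors.
Loxl4: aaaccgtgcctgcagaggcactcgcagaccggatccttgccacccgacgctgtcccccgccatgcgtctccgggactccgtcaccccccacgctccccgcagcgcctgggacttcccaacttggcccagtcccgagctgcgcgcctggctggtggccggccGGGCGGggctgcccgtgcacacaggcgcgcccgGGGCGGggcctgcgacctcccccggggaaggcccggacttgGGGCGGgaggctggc
Fbln5: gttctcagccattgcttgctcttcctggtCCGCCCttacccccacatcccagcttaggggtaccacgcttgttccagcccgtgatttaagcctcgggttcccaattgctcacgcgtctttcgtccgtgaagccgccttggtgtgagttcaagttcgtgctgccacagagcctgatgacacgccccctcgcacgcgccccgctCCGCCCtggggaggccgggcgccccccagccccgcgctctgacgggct
Loxl4 held 3 such matches, the outer start of Fbln5 held 2 and its inner start (chr12:101818485-101818734) held 0, and 32.7% of all 32851 promoters of this length in the table held at least 1. The motif TGANTCA of AP-1 (6.7% of promoters), the E-box CACGTG (6%) and TATAAA (12.4%), each read on both strands, were in none of the 7 windows.

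Across the 10 genes, line 32 had the lowest mean in every case, and 16-6 had the highest in 8. The full order 16-6, R1, T2, S8, 32 was found for Lox, Loxl2, Loxl4, Fbn1 and Efemp2. How many of all genes had 32 lowest, 16-6 highest or this full order was not counted, so these counts are a description. Among all genes past the thresholds given below, 1127 were lower in 32 than in R1 and 211 higher. For 8 of the 10 genes (all but Fbn2 and Eln), every 16-6 library was above every R1 library and every R1 library above every 32 library, an arrangement that 12.3% of the 13693 genes fitted also had. Over the 8 libraries, the 28 pairs of these 8 genes had Pearson correlations of 0.86 to 1 (median 0.945) on the log2(FPKM + 1) scale, Fbn2 had 0.58 to 0.87 with them, and Eln had -0.09 to 0.68 with the other 9. The libraries of a line are shared by all pairs, so these coefficients describe 5 lines rather than 8 independent points.

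Differences were also taken from a fit of log2(FPKM + 1) in all 8 libraries with limma, in which S8 and T2, having no replicates, are assumed to vary like the lines that have them. A gene was called where its Benjamini-Hochberg adjusted p was below 0.05 and its difference at least 2-fold. For the 10 genes, the counts past these thresholds are a description and no test, since the same values chose them. Against R1, line 16-6 had 8 of the 10 genes past the thresholds and higher and 1 lower (Eln), beside 7.11% of all genes called, 3.58% higher and 3.53% lower. The differences of the 8 genes ran from 1.02 ± 0.08 (SE) for Efemp2 to 2.14 ± 0.06 for Loxl3 on the log2 scale, and Eln stood at -1.73 ± 0.11. Efemp2 lay at the threshold, with 0.99 when R1 replicate 1 was left out. Fbn2 stood at -0.31 ± 0.09. Eln reached the FPKM of 1 needed to enter the fit in R1 alone. Its calls as lower in the iPSC lines are thus tied to that filter. The median of the 10 genes was 1.24 and that of all genes -0.026.

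Line 32 had 9 of the 10 genes past the thresholds and lower than R1 and 0 higher, beside 9.77% of all genes called, 1.54% higher and 8.23% lower. The values ran from -2.87 for Lox to -0.68 for Loxl4, with a median of -2.08 against -0.019 for all genes. Loxl4, the gene short of the 2-fold minimum, stood at -1.06 with a pseudocount of 0.1. Fbln5, counted at -1.02, stood at -0.6 with quantile normalization. S8 had 5 that were past the thresholds and lower (Lox, Loxl2, Fbn1, Fbn2 and Eln, at -1.02 to -1.85), beside 16.7% of all genes called, 6.93% higher and 9.74% lower. With the pseudocount of 1, T2 had Eln alone past the thresholds, at -1.49, beside 10.5% of all genes called, 3.95% higher and 6.54% lower, and Fbln5 was at 0.73 and Lox at -0.44. The calls of Eln as lower than R1 in the iPSC lines, T2 among them, are tied to the filter, which Eln passed in R1 alone. Fbn2 stood at -0.86 in T2, and at -1.21 with a pseudocount of 0.1. Between 16-6 and 32, 9 of the 10 genes were past the thresholds and higher in 16-6 and 0 lower, beside 10.3% of all genes called, 9.22% higher and 1.09% lower. Lox and Loxl3 differed by 4.09 and Eln, which was short of the minimum, by 0.14. With quantile normalization, the share of all called genes that were higher moved from 15.8% to 36.1% for 32 against R1 and from 89.4% to 78.9% for 16-6 against 32. The genes described here then gave 0 higher and 8 lower in the first of these comparisons, beside 413 higher and 731 lower of all 13693 genes. In the second they gave 8 higher and 0 lower, beside 974 higher and 260 lower of all genes. The difference of Eln between 16-6 and 32 turned to -0.12.

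**Figure D3:**
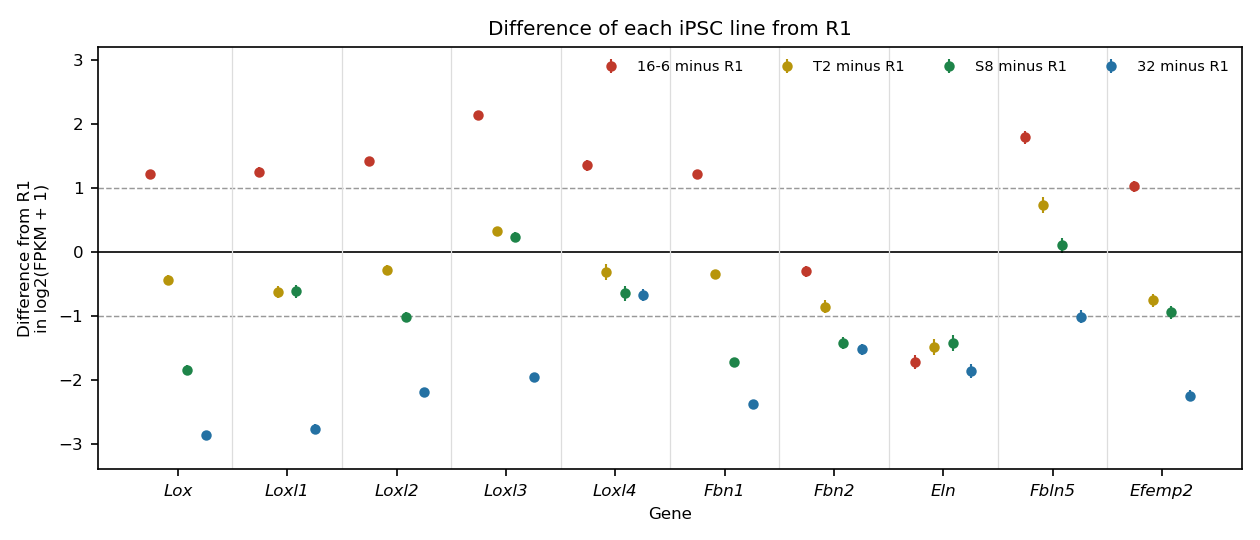
Difference of each iPSC line from R1 in log2(FPKM + 1) for the 10 genes, with bars for the standard error of the fit (n = 8 libraries in all), a solid line at 0 and dashed lines at the 2-fold minimum. Points of 16-6 lie above those of 32 for every gene, and all 4 lines lie below 0 for Eln and Fbn2.

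Marker sums of fibroblasts and of parietal endoderm stood in the line order of Lox, while the sums of the other cell types did not. The summed FPKM of the 13 fibroblast markers, led by collagens and including Dcn, Lum, Pdgfrb and Thy1, was 1032.8 and 1145.5 in R1, 2023.9 and 2049 in 16-6, 94 and 94.5 in 32, 463.5 in S8 and 617.1 in T2. All 13 were lowest in 32, none was at 0 in any library, and 10 were highest in 16-6, while Col3a1, Dcn and Lum were highest in R1. Dcn, which encodes the collagen-binding proteoglycan decorin, had an FPKM of 217 and 204 in R1 and 32.9 and 33.3 in 16-6, a direction opposite to that of the sum. The 7 smooth muscle markers, which include Acta2, Tagln and Myh11, were all highest in 16-6, with a mean sum of 1690.1 against 155.3 in R1, 235.2 in 32, 349.1 in S8 and 440.1 in T2. The 8 parietal endoderm markers had mean sums of 332.9 in R1, 707.4 in 16-6, 139.8 in 32, 206.2 in S8 and 260.8 in T2. Most of this sum was Sparc, a matrix protein gene of many cell types (267 and 272 in R1, 613.5 and 588 in 16-6), and only 3 of the 8 were highest in 16-6, while Lama1 was highest in 32 (16.3 and 15.8) and Gata4, Gata6, Sox17 and Sox7 stood between 0.09 and 1.52 in every library. Mean sums over the lines were 2.9 to 7.4 for 5 endothelial markers, 2.2 to 29.8 for 6 blood, 2.8 to 16.2 for 5 adipocyte, 1.4 to 2.7 for 5 epidermal and 2.1 to 6 for 6 stomach markers. R1 had the highest sum of the endothelial, blood, adipocyte and stomach lists, and Hbb-b1, Tff1, Gkn1 and Gkn2 were at 0 in every library. Fewer cells of a type and less RNA per cell cannot be told apart in bulk samples, and the part of the feeder cells or of other fibroblasts in the levels of the lysyl oxidases and elastic fiber genes was not tested.

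Set against the fibroblast markers, the line means spanned a narrower range for 9 of the 10 genes and a wider one for Eln. The marker sum itself stood in the line order of Lox, from 94 in a library of 32 to 2049 in a library of 16-6. A narrower range for genes of that order, and a rise of 32, thus follow in part from the division itself. What this scale says of the source of these genes was not tested. Per 1000 FPKM of the marker sum, Loxl1 stood at 18.9 and 20.1 in R1, 25.7 and 25.2 in 16-6. Each library of 32 had 23.9, with 29.1 in S8 and 21.7 in T2. Its line means thus spanned 1.49 times in place of 23.1 times. Efemp2, Loxl2, Lox, Loxl3, Fbn1 and Fbln5 spanned 2.23 to 3.54 times on this scale, Fbn2 4.32 times and Loxl4 5.3 times. Their FPKM had spanned 10.6 to 32.5 times for the first 6 of these, 6.64 times for Fbn2 and 7.05 times for Loxl4. Eln spanned 15.3 times in place of 11.6 times, with 3.82 and 3.33 in R1, 0.28 and 0.19 in 16-6, 4.47 and 2.66 in 32, 1.76 in S8 and 1.2 in T2. On this scale 32, which had the lowest FPKM of every gene, had the highest mean for Lox, Loxl2, Loxl4, Fbn1, Fbn2 and Efemp2.

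**Figure D4:**
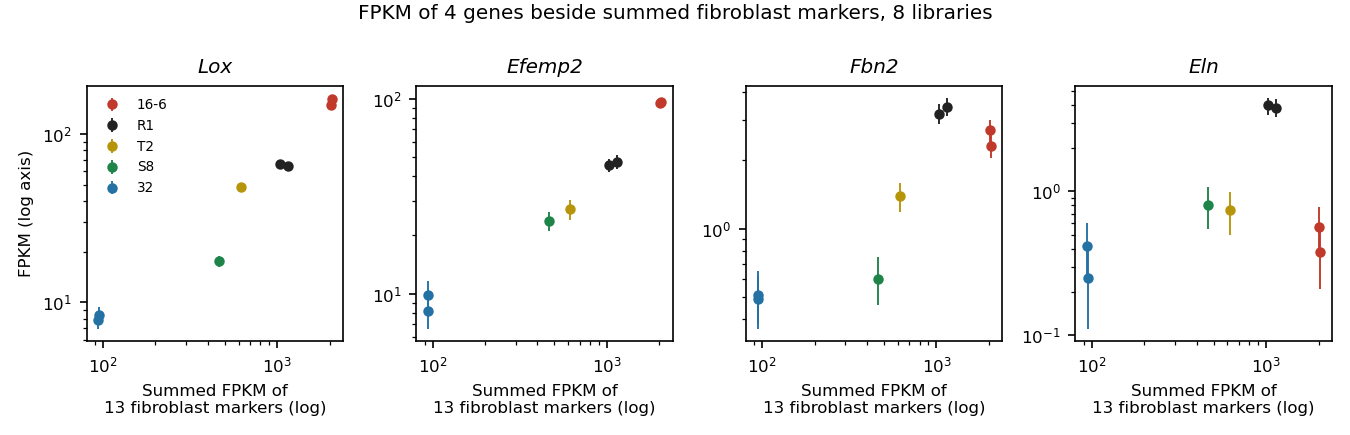
FPKM of Lox, Efemp2, Fbn2 and Eln (vertical, log axis, bars for the confidence limits) against the summed FPKM of 13 fibroblast markers (horizontal, log axis), with 1 point for each of the 8 libraries colored by line. Lox and Efemp2 are highest in 16-6, where the marker sum is 2023.9 and 2049, while Fbn2 and Eln are highest in R1, where it is 1032.8 and 1145.5.

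For each gene, the 3 other genes with the most similar profile were taken by the Pearson correlation of log2(FPKM + 1) over the 8 libraries (5 lines), which is a description. Lox and Fbn1 shared the noncoding RNA gene Meg3 in first place (0.9989 and 0.9979), and Lox was followed by Pdzrn3 and by Tgfbr2, a TGF-beta receptor. Loxl1 was closest to Aebp1 (0.9994), which encodes a collagen-binding matrix protein, and then to Nbl1 and Prnp. The likest genes of Loxl2 were the fibrillar collagens Col5a1 (0.9973) and Col5a2 and then Cd248, and those of Efemp2 were Adm (0.9994), Bmp1 (0.999) and Angptl2. Loxl3 went with Pbxip1 (0.9981), Chst2 and the fibulin gene Fbln2, Loxl4 with Sh3glb1 (0.9987), Me1 and Furin, and Fbln5 with 5430417L22Rik (0.9937), Hoxb3 and the collagen-binding integrin gene Itga11. Fbn1 also had Arhgef40 and the aggrecanase gene Adamts5. Fbn2 was closest to Stx11 (0.9952), Pde4d and Reck, and Eln to Prmt8 (0.9924), Fgf1 and Ace.

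The rest of the pathway was followed in 6 lists of 68 genes, 60 of which entered the fit, and limma p-values are given for them. These lists, like the 10 genes, were chosen with earlier results of these data known, so that the p-values and counts are no independent evidence. In 16-6, 15 pathway genes rose against R1 and 2 fell (28.3%, beside 7.11% of all genes), with a median difference of 0.36. Of the 14 microfibril genes, 4 rose, led by Ltbp1, which tethers latent TGF-beta to fibrillin (1.73 ± 0.06, adjusted p = 0.000109), Adamts6 (1.56 ± 0.09, adjusted p = 0.000281) and Mfap5 (1.44 ± 0.06, adjusted p = 0.000144). Ltbp1 had an FPKM of 17.1 and 18.6 in R1 and 60.9 and 61.8 in 16-6. Fbln2, a fibulin that binds elastin and fibrillin, rose by 2.07 ± 0.08 (adjusted p = 0.000129), from 61.6 and 66.5 in R1 to 269 and 274 in 16-6, while the other 2 fibulins tested did not pass. Among 8 genes of lysyl oxidase activation and copper supply only Tll1 rose (1.72 ± 0.07, adjusted p = 0.000129). Tll1 is a relative of Bmp1, the protease that cuts the proenzyme of Lox. Bmp1, at 0.98 ± 0.09 (adjusted p = 0.00101 by limma), was just short of the 2-fold minimum, with an FPKM of 22.4 and 22.1 in R1 and 43.6 and 46.2 in 16-6. Of 13 genes of collagen modification 2 rose, the collagen chaperone Serpinh1 (1.35) and the prolyl hydroxylase P4ha3 (1.06). Of 11 TGF-beta genes 3 rose, Tgfb3 (1.6), Itgb8 (1.02) and Itgav (1.01), the last 2 of them at the 2-fold minimum. Itgb8 reached the FPKM of 1 needed to enter the fit only in 16-6 (1.39 and 1.68) and in a library of 32 (1.14). Its rise is thus tied in part to that filter.

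The 11 elastin-degrading proteases and their inhibitors were the list that moved both ways in 16-6, with 4 higher and 2 lower than R1. Ctsk, cathepsin K, rose by 1.57 (adjusted p = 0.000332 by limma). Mmp12, the macrophage elastase, fell by 1.86 (adjusted p = 0.000113 by limma) and cathepsin S, Ctss, fell by 1.57 (adjusted p = 0.000658). Mmp12 and Ctss reached the FPKM of 1 needed to enter the fit in R1 alone. Their calls as lower in the iPSC lines are thus tied to that filter and are a description. Mmp12 had an FPKM of 4.84 and 4.69 in R1. Each library of 16-6 had 0.58 and each of 32 had 0.03, with 0.06 in S8 and 0.26 in T2. The high level was thus found in R1 alone, as for Eln, and the sum of the blood markers was also highest there (29.6 and 30.1, against 2.1 to 8.2 elsewhere). Most of that sum was Cd34 (26.6 and 27.3), a gene that is not specific to blood, while Itgam stood at 2.05 and 1.99 and Ptprc, which marks all leukocytes, at 0.41 and 0.32.

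In 32, 34 pathway genes fell against R1 and 0 rose (56.7%, beside 9.77% of all genes), with a median of -1.26, and with quantile normalization 32 fell and 1 rose. The list of proteases and inhibitors had 10 of 11 lower, among them the gelatinases Mmp2 (-3.15 ± 0.05, adjusted p = 1.12e-05 by limma) and Mmp9 (-2.89 ± 0.08, adjusted p = 2.48e-05) and the inhibitor Timp2 (-2.67). Mmp2 had an FPKM of 50 and 52.9 in R1, 47.9 and 49.7 in 16-6 and 5.07 and 4.75 in 32. Of the microfibril genes 9 of 14 fell, led by Ltbp2 (-2.84), Emilin2 (-2.72) and Ltbp3 (-2.5), and all 3 fibulins fell, Fbln2 by 2.38, Efemp1 by 2.01 and Fbln1 by 1.15. Of the 8 genes of activation and copper supply, Bmp1 alone was called (-2.26 ± 0.09, adjusted p = 7.9e-05 by limma). Its FPKM went from 22.4 and 22.1 in R1 to 4.3 and 3.45 in 32. Tll1, at -0.96 ± 0.07, was just short of the 2-fold minimum, with an FPKM of 2.47 and 2.23 in R1 and 0.72 and 0.71 in 32. The prolyl hydroxylases P4ha2 (-2.34) and P4ha1 (-2.11) and Leprel2 (-1.98) led the 7 of 13 genes of collagen modification that fell, and Tgfbr3 (-2.47), Tgfbr2 (-2.01) and Itgb3 (-1.74) led the 4 of 11 TGF-beta genes.

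In S8 and T2, most of the pathway genes called were also lower than in R1, and these calls rest on the spread of the other lines, since S8 and T2 have 1 library each. In S8, 23 pathway genes fell and 1 rose (40%, beside 16.7% of all genes), with a median of -0.77, and in T2 17 fell and 1 rose (30%, beside 10.5%), with a median of -0.62. The gene that rose was Emilin3 in both lines, which is named after its values were seen and had an FPKM of 0.32 and 0.21 in R1, 1.62 in S8 and 1.79 in T2. Emilin3 reached the FPKM of 1 needed to enter the fit in S8 and T2 alone, so its rise is tied to that filter. Among the called genes with the 3 largest differences of each list, Emilin2, Mfap2, Efemp1, Fbln1, Tgfbr3, Itgb3, P4ha1, Mmp12 and Mmp9 fell in both lines, with differences from -1.33 to -2.83. Other genes were lower in both lines as well, among them Emilin1 (-1.07 in S8 and -1.18 in T2) and Mmp2 (-1.55 in S8 and -1.29 in T2). Of the genes of activation and copper supply, the copper transporter Atp7a (-1.43, adjusted p = 0.000126 by limma) and fibronectin, Fn1 (-1.35, adjusted p = 7.61e-05), fell in S8. None of these 8 genes was called in T2, where their median was -0.5.

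**Figure D5:**
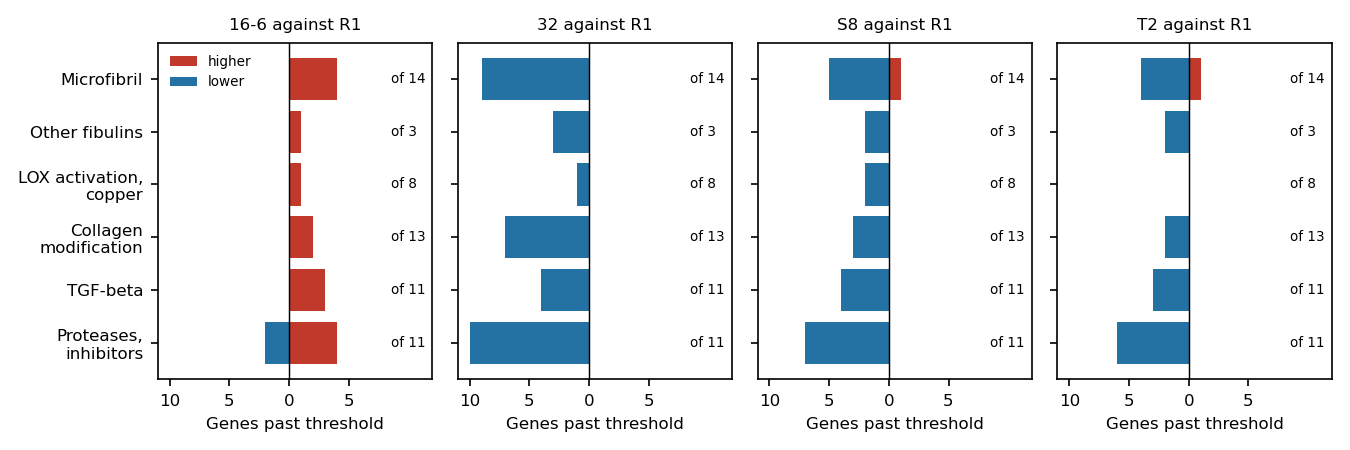
Number of genes of 6 pathway lists called higher (red, to the right) or lower (blue, to the left) in each iPSC line than in R1, with the number tested written beside each bar. Line 16-6 has mostly higher calls (15 of 17) and line 32 lower calls only (34 of 34).

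Between 16-6 and 32, 41 of the 60 pathway genes were higher in 16-6 and 0 lower (68.3%, beside 10.3% of all genes), with a median of 1.67. With quantile normalization 37 were higher and 0 lower. Fbln2 (4.44 ± 0.08, adjusted p = 5.48e-06 by limma) and Ltbp2 (4.28 ± 0.06, adjusted p = 3.34e-06) differed most in their lists, and Ctsk (3.72), Bmp1 (3.24), Tgfb3 (3.02) and Serpinh1 (2.79) most in the other 4. Of the 19 genes that were not called, 4 belong to activation and copper supply, 5 to collagen modification and 3 each to the microfibril, TGF-beta and protease lists, and 1 is the fibulin gene Fbln1.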

How the data were processed

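RNA of 8 libraries from 5 lines was sequenced as paired reads. Per the authors' methods, TopHat 2.0.4 aligned them to mm9 and its UCSC genes, only unique alignments were used, and the deposited FPKM and confidence limits are the output of Cufflinks, for which the submitters' notes give version 2.0.0 and the paper a later one. Its options and the use of strand are not given in the sources used here. The deposited FPKM sum to 1.14408e+10 to 1.60283e+10 for a library, far above the usual scale, and all were divided by 12725.7. The fragments behind a value were estimated from the deposited limits, by dividing 2 × FPKM by the distance from the FPKM to its upper limit and squaring, and 80.8% to 82.3% of genes under 50 fragments came out whole to within 0.01. The Cufflinks status of the 10 genes was OK in every library.

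Genes that reached an FPKM of 1 in any library (13693 of 22878 rows) were fitted as log2(FPKM + 1) with limma 3.58.1 in R 4.3.3 (lmFit, eBayes with trend), all 8 libraries in 5 groups, with 3 residual degrees of freedom. A log2 difference of values with 1 added understates the change of low genes. Genes were called at an adjusted p below 0.05 over all genes and a 2-fold difference. An exact permutation test of 2 libraries against 2 cannot go below p = 0.33 and was not used. Tables were made in Python 3.11.15 (numpy 2.4.6, scipy 1.17.1 and pandas 2.3.3).

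The 10 genes, the pathway lists and the marker lists were chosen with earlier results of these data known. Named in the text are the 10 genes, up to 3 called genes of each pathway list and comparison with the largest difference, and the 3 genes most like each of the 10; single markers are named where they define a list. Sequences came from the GENCODE annotation of the same build as the files and from RefSeq. Alternatives were a pseudocount of 0.1, other filters, quantile normalization, eBayes without trend, a replicate block, the 6 libraries of R1, 16-6 and 32 alone, and leaving out each replicate.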

Additional observations from a re-analysis of the deposited data

Results flagged for a closer look

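Of the 10 genes, 8 stood on opposite sides of R1 in the 2 mesoderm-derived lines: every 16-6 library was above and every 32 library below both R1 libraries. The same arrangement was found for 1681 of the 13693 genes fitted (12.3%). Of all genes called between 16-6 and 32, 1263 were higher in 16-6 and 149 lower. The difference between 16-6 and 32 on the log2(FPKM + 1) scale was 4.09 for Lox, 4.02 for Loxl1, 3.61 for Loxl2, 4.09 for Loxl3, 2.03 for Loxl4, 3.6 for Fbn1, 2.81 for Fbln5 and 3.27 for Efemp2. Both comparisons use the same R1 libraries, the genes were chosen with these values known, and the difference was not tested. The summed fibroblast markers stood in the same order (2023.9 and 2049 in 16-6, 1032.8 and 1145.5 in R1, 94 and 94.5 in 32), and their part in it was not tested.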

How the results depend on the processing

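With a pseudocount of 0.1, the genes called against R1 rose from 974 to 1690 in 16-6, from 1338 to 2258 in 32 and from 1437 to 2198 in T2. The fit was also limited to genes that reached an FPKM of 1 in all libraries, 10994 in place of 13693. The genes called against R1 were then 565 in 16-6, 740 in 32 and 940 in T2. Those between 16-6 and 32 were 859 in place of 1412, and the pathway genes called in 16-6 were 9 in place of 17. In each of these comparisons the genes called fell by a larger share than the genes fitted. The reason was not tested. Leaving out each replicate gave 973 to 1015 genes for 16-6, 1336 to 1414 for 32, 2243 to 2403 for S8 (2283 with all libraries), 1421 to 1515 for T2 and 1410 to 1444 between 16-6 and 32, and 15 to 19, 34 to 35, 23 to 25, 17 to 19 and 39 to 41 pathway genes in the same order. In these fits the remaining library is assumed to vary like the other groups.

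Among the 50 differences of the 10 genes, the pseudocount moved values by up to 1.35 (Eln, 32 against R1) with 0 changes of sign, quantile normalization by up to 0.42 (Fbln5, 32 against R1) with 1 change (Eln between 16-6 and 32, from 0.14 to -0.12), and leaving out a replicate by up to 0.12 with 0 changes. The Eln values of the iPSC lines rest on 13 to 38 fragments, which limits their order.

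In the 6 libraries of R1, 16-6 and 32, a replicate block gave 971, 1342 and 1413 genes for 16-6 against R1, 32 against R1 and 16-6 against 32, against 975, 1343 and 1412 without the block, and 17, 34 and 41 pathway genes either way. Deviations of same-numbered replicates had correlations of -0.097, 0.001 and 0.028, and the replicate numbers were therefore not taken as pairs.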
